A study of Homo sapiens with 12 samples.

Results

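Monolayers of A549 cells that were heat shocked and then wounded were compared with untreated control monolayers across all measured genes. The comparison used the 3 arrays labelled as heat shocked and wounded and the 3 arrays labelled as control, 6 of the 12 arrays of the series, and 18132 genes were tested, each read through 1 probe set. A549 is a human lung adenocarcinoma line that is often used as a model of alveolar type II epithelium. The series asked how a preceding heat shock changes gene expression in wounded lung epithelium.

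Heat shock unfolds proteins and releases heat shock factor 1, HSF1, which switches on genes of chaperones, proteins that keep others folded and are named by size as HSP70, HSP90 or HSP40. Wounding an epithelial sheet starts a second programme at the wound edge, in which growth factor signalling and calcium act on early transcription factors such as FOS, EGR1 and JUN, and later on genes for matrix proteases, integrins and matrix components with which the cells spread over the gap. Cells under either stress commonly pause the cell cycle.

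Control monolayers were A549 cells left untreated on uncoated plastic. Heat shocked monolayers were heated for 2 h, wounded monolayers were multiply wounded and studied at 4 h, and the combined group received the heat shock first and the wounding afterwards; the temperature, the time of collection after heat shock alone and the share of cells near a wound were not given in the sources used here. All 4 groups of 3 arrays were of the same line and medium, with 100 ng of total RNA on each array. Separate cultures for the replicates are not mentioned in the labels, so the p-values measure differences only relative to how much these samples vary, which may be technical. RNA was taken from whole monolayers, in which fewer cells expressing a gene and less RNA per cell cannot be told apart.

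Values are log2 levels, so that a difference of 1 is 2-fold, and a level under 5 is called dim here, because folds that start or end there are compressed and approximate. The marker genes of leukocytes and endothelium, which A549 should lack, had an upper quartile of 4.60 in control. Epithelial markers were strong, with KRT18 the highest, and their mean level was 9.77 to 9.79 in control and 9.74 to 9.89 in the combined group. Of these 12 markers CLDN4 was higher and 4 were lower, CDH1, CLDN1, CD24 and ELF3, by 0.26 to 0.41. Of 13 alveolar type II markers 2 were higher and 2 lower (1 without combined replicate 2). This list averaged 5.08 to 5.18 in control and 5.14 to 5.35 in the combined group. Only 6 of its 13 members had a mean of at least 5 over all arrays, and LPCAT1 was the highest. The 8 alveolar type I markers averaged 5.83 to 5.88 in control and 5.78 to 5.85 in the combined group, with CAV1 the highest, and 1 was lower. Fibroblast markers averaged 3.42 to 3.64 and 3.38 to 3.54, and leukocyte markers 4.18 to 4.22 and 4.19 to 4.31. None of the 10 fibroblast and 11 leukocyte markers passed. Among the 10 endothelial markers 2 were higher, TIE1 and ESAM, but only ESAM without combined replicate 2, and the list averaged 3.82 to 3.87 in control and 3.88 to 4.15 in the combined group. The median difference of this list was 0.17, and 0.02 without combined replicate 2. The part of these markers in the results was not tested.

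Replicate 2 of the combined group stood apart from the other arrays. The interquartile range of its levels was 3.98, against 4.13 to 4.24 on the other 11, and it correlated with the other arrays of its group at 0.994 and 0.9951. It lay more than 0.5 from the mean of the other arrays of its group in 885 genes, compared with 244 and 425 genes for combined replicates 1 and 3 and with 63 to 101 genes for the control arrays. Results were therefore also computed without it.

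The combined treatment changed 4180 genes, 23.1% of those tested (limma adjusted p under 0.05), of which 1571 were higher (8.66%) and 2609 lower (14.4%). With cyclic loess scaling, an alternative that removes trends with the level, the split was 1931 higher and 1947 lower. Median centring kept a surplus of falls, with 1613 higher and 2402 lower, as did repeated quantile normalization, with 1683 and 2372. The surplus thus depended on which scaling was used. Most changes were small: the median was 0.45 among the higher and -0.39 among the lower genes, and 292 genes (1.61%) changed by at least 2-fold. In contrast to the full count, these large changes were mostly rises, 234 against 58 falls. At least 4-fold changes were found for 40 higher and 2 lower genes, and at least 8-fold changes for 12 higher genes, 8 of which were dim in control. The arrays of both groups did not overlap for 4124 of the 4180 genes, beside 37.4% of all genes with no overlap.

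**Figure D1:**
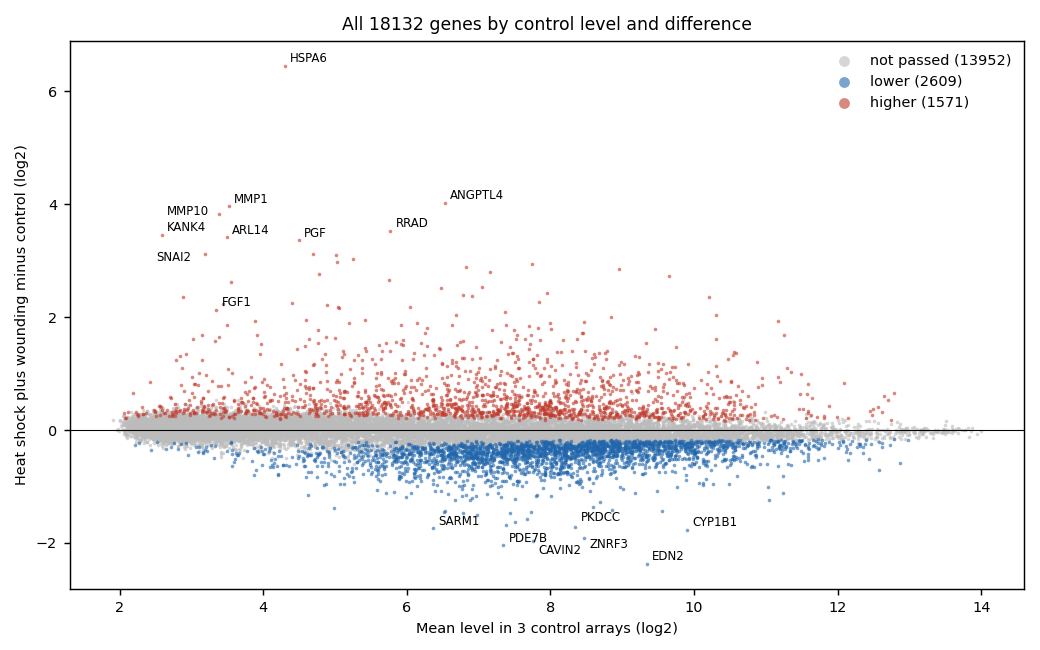
Each point is 1 of 18132 genes, placed by its mean log2 level in the 3 control arrays and by the difference between heat shocked and wounded monolayers and control (log2), in red where higher (1571), blue where lower (2609) and grey where not passed (13952). Rises reach 6.46 for HSPA6, whereas the largest fall is -2.37 for EDN2.

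Without combined replicate 2, 3374 genes passed (18.6%), 1338 higher (7.38%) and 2036 lower (11.2%). Both settings shared 3156 genes, 1237 higher and 1919 lower, and no gene passed in opposite directions. Of the 234 and 58 genes changed at least 2-fold, 220 and 43 passed that bound again. Combined replicate 2 was farther from control than replicates 1 and 3 in 163 of the 226 genes at least 2-fold higher without it, by a median of 0.11, and in 41 of the 46 lower genes, by a median of 0.29. A cause for this was not tested.

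**Figure D2:**
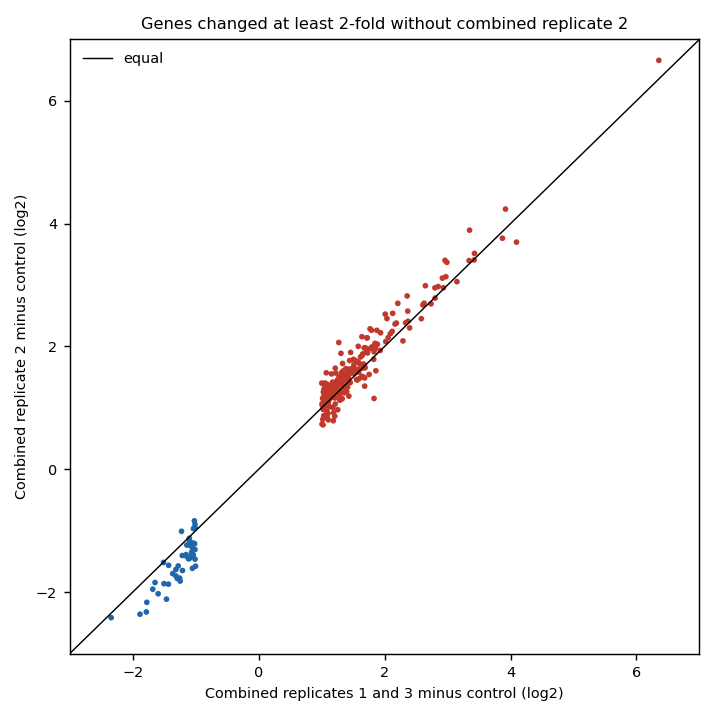
Genes at least 2-fold higher (226, red) or lower (46, blue) in combined replicates 1 and 3, with their mean difference from control on the x axis and that of combined replicate 2 on the y axis (both log2). Of the lower genes, 41 lie below the line of equal difference, and 163 of the higher genes lie above it.

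Chaperone genes included the largest rise of all genes tested. HSPA6, a strictly inducible HSP70 gene, read 4.48, 4.11 and 4.31 in control and 10.92, 10.96 and 10.40 in the combined group. It thus went from a dim level to a high one on all 3 arrays, by 6.46 ± 0.26 (SE; about 87.9-fold; adjusted p = 1.93e-08), where heat shock alone had given 5.79 and wounding alone 0.31 (adjusted p = 0.703). HSPA4L, an HSP110 family gene, rose from 7.16 ± 0.09 to 9.96 ± 0.17 (SD, n = 3; 6.96-fold), and HSPA1B rose 5.1-fold. HSPA6 and HSPA1B have near-identical relatives whose RNA the same probes may read. Of the 15 measured HSP70 and HSP110 genes 7 rose and 2 fell, with the same counts without combined replicate 2. The falls were HSPA14 and HSPA2, a gene best known for its testis expression, which went from 10.13 ± 0.07 to 9.15 ± 0.10. The constitutive HSPA8 stayed within 0.07 ± 0.06 of control (adjusted p = 0.535), at a level of 13.59.

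Small heat shock proteins, which hold unfolded proteins in solution, and the co-chaperone BAG3, which links HSP70 to autophagy, followed. HSPB8 read 7.80, 7.70 and 7.73 in control and 10.76, 10.70 and 10.60 after both treatments, a 7.68-fold rise with very little spread (2.94 ± 0.07; adjusted p = 3.72e-10). CRYAB, the alpha B-crystallin gene, rose from 5.75 ± 0.14 to 8.40 ± 0.31, and BAG3 from 9.65 ± 0.11 to 12.37 ± 0.13 (6.61-fold). In this list of 13 small heat shock and BAG genes 5 rose and 2 fell (4 and 1 without combined replicate 2). DNAJB1, the HSP40 partner of HSP70, rose 4.09-fold and DNAJB6, a suppressor of aggregation, 2.58-fold, and 9 of 20 DNAJ genes rose and 3 fell.

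Most genes of HSP90 and its partners rose. Of 15 measured members 10 rose and 1 fell, with a median difference of 0.38 beside -0.01 over all genes. CHORDC1, an HSP90 cofactor, rose from 10.30 ± 0.16 to 11.92 ± 0.10 (3.06-fold) and FKBP4, an immunophilin of steroid receptor complexes, 2.61-fold. Changes in the cytosolic chaperonin TRiC were smaller: 4 of 8 subunits rose, CCT6A by 0.49 ± 0.06 and TCP1 by 0.37 ± 0.06. SERPINH1, which encodes HSP47, the collagen chaperone of the endoplasmic reticulum, read 9.05, 9.02 and 8.81 in control and 11.97, 11.91 and 11.54 in the combined group. This 7.22-fold rise came with 3.10 for heat shock alone and -0.19 for wounding alone (adjusted p = 0.537).

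Other proteostasis genes changed less. For the counts below, 8.66% of all genes were higher and 14.4% lower. ZFAND2A, an arsenite- and heat-inducible proteasome-associated gene, rose 3.44-fold, and in the ubiquitin and aggregate clearance list 3 of 18 genes rose and 3 fell. Of 20 endoplasmic reticulum stress genes 5 rose and 2 fell, among them HERPUD1, a member of the degradation machinery (0.85 ± 0.13), and PPP1R15A, which restores translation (0.67 ± 0.10). Among 27 proteasome genes none rose and 2 fell, PSMD11 and PSMA3, and the PSMA3 call was lost in 5 of the 6 settings that left out an array, without each control replicate and without combined replicates 1 and 3. HSF1 itself differed by 0.14 ± 0.08 (adjusted p = 0.229).

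Several leading genes of the heat shock and proteostasis lists did not pass the test between the combined group and heat shock alone. The difference between the combined group and heat shock alone was -0.02 for BAG3 (adjusted p = 0.962), 0.05 for DNAJB1 (adjusted p = 0.915), -0.08 for CHORDC1 and a larger 0.67 for HSPA6 (adjusted p = 0.192). These p-values do not show that the levels were equal. Across the HSP70, DNAJ, small heat shock protein, HSP90 and TRiC lists, DNAJB5 was the only member higher than in control and in each single treatment. It exceeded control by 0.87, heat shock alone by 0.67 and wounding alone by 0.72.

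Several strong rises outside the chaperones were also large after heat shock alone. PGF, which encodes placental growth factor, read 4.55, 4.87 and 4.07 in control and 8.04, 7.89 and 7.64 after both treatments, about 10.3-fold higher, with 3.38 for heat shock alone and -0.40 for wounding alone. The eosinophil chemokine gene CCL26 rose about 6.78-fold from a dim 4.78 ± 0.26, and DEDD2, a death effector domain gene, 7.43-fold from 6.82 ± 0.25. MICB, which natural killer cells recognise through NKG2D on stressed cells, rose from 7.04 ± 0.07 to 9.58 ± 0.09 (5.82-fold). OXTR, the oxytocin receptor gene, rose from 5.25 ± 0.12 to 8.28 ± 0.12 (8.15-fold), with 2.56 for heat shock alone and 0.71 for wounding alone. For these genes all combined arrays lay above all control arrays. In the list of MHC class I and NKG2D ligands 3 of 17 genes rose and 1 fell, 23.5% in all beside 23.1% of all genes.

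Early transcription factors of the wound response were higher in the combined group. EGR1, a zinc finger factor induced within minutes of injury, read 5.32, 5.01 and 4.76 in control and 7.43, 8.14 and 8.47 after both treatments. The combined arrays differed among themselves by about 1, but all lay above control, by 2.98 ± 0.27 (7.91-fold; adjusted p = 8.12e-06), and wounding alone had given 2.99. The EGR1 mean after heat shock alone was also above control, by less than after wounding alone. FOS, the partner of JUN in the factor AP-1, rose 2.91-fold, and its combined mean of 7.74 ± 0.27 was 0.50 below that of wounding alone (adjusted p = 0.0453). JUNB rose from 7.18 ± 0.14 to 8.95 ± 0.18 and was higher than in heat shock alone by 0.96 and than in wounding alone by 0.74 (adjusted p = 0.000718 and 0.00191). Both values are smaller than its rise of 1.78 over control, so the JUNB means of both single treatments were also above control. JUN rose 3.28-fold. Of 13 AP-1 and ATF factors 6 rose and 2 fell.

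The EGR, NR4A and SRF-linked list had 9 of 14 members higher and none lower (6 and 0 without combined replicate 2), with a median of 0.51. It held the matricellular genes CCN1 and CCN2, targets of SRF and YAP, at 2.11-fold and 2.02-fold, and ANKRD1, which rose by 1.26 ± 0.33 but did not pass without combined replicate 2 (adjusted p = 0.0525), nor without combined replicate 1 or control replicate 2 (adjusted p = 0.0532 and 0.0584). Kruppel-like factors rose in 7 of 14 cases and fell in 2, led by KLF7 from 7.99 ± 0.02 to 9.88 ± 0.12 (3.72-fold), and by KLF6 and KLF2 at 2.64-fold and 2.4-fold. ETS factors were split, 6 higher and 5 lower of 20. ETS2 rose from 8.47 ± 0.08 to 10.39 ± 0.14 and ETS1 3.3-fold, whereas EHF, an epithelium-specific ETS factor, fell from 7.67 ± 0.22 to 6.09 ± 0.35.

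Promoter sequence was looked up for the genes with a RefSeq window, 14425 of 18132, which runs from 250 bases before to 50 after the gene's start (build GRCh38.p14). Both strands were searched for a heat shock element (GAA, 2 free bases, TTC, 2 free bases, GAA), an AP-1 site written as TGANTCA, and the serum response element. The following stretches show the matches in capitals, 5′ to 3′ on the gene's strand, for genes that rose strongly. The first ones hold a heat shock element and belong to HSPA6 (chr1:161524436-161524515, plus strand), SERPINH1 (chr11:75562147-75562226, plus strand) and CHORDC1 (chr11:90223060-90223139, minus strand), in which 3 overlapping matches form the run in capitals.
HSPA6: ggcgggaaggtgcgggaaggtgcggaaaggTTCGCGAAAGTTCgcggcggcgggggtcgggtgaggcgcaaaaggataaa
SERPINH1: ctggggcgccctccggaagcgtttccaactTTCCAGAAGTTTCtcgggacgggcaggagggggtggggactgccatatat
CHORDC1: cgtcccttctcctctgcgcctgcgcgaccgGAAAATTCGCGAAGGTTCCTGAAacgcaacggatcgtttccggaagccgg
The next stretches hold an AP-1 site, in the HSPA6 window farther upstream (chr1:161524290-161524369, plus strand), in MMP10 (chr11:102780646-102780725, minus strand) and in BAG3 (chr10:119651300-119651379, plus strand).
HSPA6, upstream: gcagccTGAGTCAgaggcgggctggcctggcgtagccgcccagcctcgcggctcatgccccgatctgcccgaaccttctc
MMP10: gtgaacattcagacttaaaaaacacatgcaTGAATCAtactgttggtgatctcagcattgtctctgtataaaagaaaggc
BAG3: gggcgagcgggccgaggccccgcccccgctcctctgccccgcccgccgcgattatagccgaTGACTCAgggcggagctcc
Serum response elements are shown for EGR1, with 2 in the stretch (chr5:138465344-138465423, plus strand), and FHL2 (chr2:105438565-105438644, minus strand), a LIM domain cofactor that rose 2.45-fold.
EGR1: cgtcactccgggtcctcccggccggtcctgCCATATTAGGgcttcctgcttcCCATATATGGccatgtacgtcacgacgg
FHL2: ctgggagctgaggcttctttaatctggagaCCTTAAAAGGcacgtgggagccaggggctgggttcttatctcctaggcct

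The heat shock element was rare, in 58 of all 14425 windows (0.402%). It was found in 11 of 1269 windows of higher genes (0.867%), in 4 of 2196 of lower genes (0.182%) and in 6 of 188 of genes at least 2-fold higher (3.19%). These 6 were HSPA6, SERPINH1, CHORDC1, DNAJB6, DOCK10 and PHF8. Their differences were 1.10 to 6.46 in the combined group, 1.31 to 5.79 after heat shock alone and -0.19 to 0.31 after wounding alone. The searched form is strict and the window short. No match stood in the windows of HSPA4L, HSPA1B, DNAJB1, HSPB8 and BAG3, which rose strongly, while the window of HSPA8, which did not pass, held a match. AP-1 sites stood in 837 of all windows (5.8%), in 22 of 188 of genes at least 2-fold higher (11.7%) and in 1 of 46 at least 2-fold lower (2.17%). The serum response element stood in 181 of all windows (1.25%) and in 19 of higher genes (1.5%), which is close to the share of all windows. These are matches of letters and do not show binding.

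Matrix proteases and their relatives were among the largest rises. MMP1, interstitial collagenase, read 3.68, 3.27 and 3.61 in control, 5.22, 5.11 and 5.05 after heat shock, 5.41, 5.28 and 5.28 after wounding, and 7.24, 7.22 and 8.0 after both. The groups did not overlap, and the combined level exceeded control by 3.96 ± 0.17 (about 15.6-fold from a dim level), heat shock alone by 2.36 and wounding alone by 2.16 (adjusted p = 3.88e-08, 3.24e-05 and 1.47e-05). MMP10, stromelysin 2, had a similar pattern, with means of 3.38 ± 0.19 in control and 7.22 ± 0.30 after both and single differences of 1.58 and 1.89. Of 24 genes in the list of matrix metalloproteinases, ADAMTS proteases and inhibitors 8 rose and 2 fell (6 and 2 without combined replicate 2), and 5 were higher than in control and in each single treatment, the proteases MMP1, MMP9 and MMP10 and the protease inhibitors TIMP1 and TIMP2. ADAMTS9, a versican-cleaving protease, fell by 0.76 ± 0.15.

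The plasminogen and prostaglandin genes had 7 of 18 members higher and none lower. PLAUR, the urokinase receptor gene, rose from 8.68 ± 0.13 to 10.05 ± 0.11, and PLAU, urokinase itself, from 9.56 ± 0.05 to 10.33 ± 0.16. PLAU read 9.58, 9.55 and 9.46 after heat shock alone, inside or just below its control range of 9.51 to 9.61, and 10.15, 10.42 and 10.42 after both. F3, tissue factor, rose 3.05-fold, and PTGER2, a prostaglandin E2 receptor gene, 4.54-fold, with no overlap of the arrays. SERPINE2, a protease nexin that inhibits urokinase and thrombin, rose 2.16-fold.

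Matrix, adhesion and migration genes rose in part. ITGA2, the collagen-binding integrin alpha 2 subunit, read 7.89, 7.96 and 7.99 in control and 10.20, 10.53 and 10.43 after both, a 5.42-fold rise that exceeded wounding alone by 0.74 (adjusted p = 0.00115). LAMB3, a chain of a laminin that keratinocytes lay down at wound edges, rose from 6.74 ± 0.18 to 8.31 ± 0.11, and the hyaluronan synthase genes HAS2 and HAS3 rose 2.39-fold and 1.86-fold. The other HAS3 probe sets did not pass in a limma fit over all probe sets, among them 1 at 5.57 in control that differed by -0.01 (adjusted p = 0.964). In the laminin and hyaluronan list 4 of 17 genes rose (23.5%, beside 8.66% of all genes), and these 4 were higher than in each single treatment as well. Of 26 collagen and collagen-modifying genes 10 rose and 2 fell (10 and 0 without combined replicate 2): COL4A1, a basement membrane collagen, 2.25-fold and P4HA2, a prolyl hydroxylase subunit, 2.05-fold. Of 23 integrin and syndecan genes 6 rose and 2 fell. The share of higher members was 38.5% in the collagen list and 26.1% in the integrin list.

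Small GTPases and their regulators had 10 of 22 members higher and 2 lower, and 6 were higher than in control and in each single treatment. RRAD, which inhibits calcium channels, read 5.75, 5.93 and 5.62 in control and 9.41, 9.66 and 8.82 after both (11.6-fold). Its excess of 1.36 over heat shock alone passed with all arrays (adjusted p = 0.0207) but not without combined replicate 2 (adjusted p = 0.0863). GEM, of the same RGK family, rose from 5.02 ± 0.02 to 8.13 ± 0.31 (8.62-fold), with single differences of 1.83 and 1.43. ARL14, an ARF-like GTPase gene, rose about 10.7-fold from a dim 3.49 ± 0.16, and RND1, whose product loosens actin fibres, 4.02-fold. KANK4, of a family that couples integrins to microtubules, rose from a dim 2.58 ± 0.11 to 6.04 ± 0.18, but its wounded arrays spread from 3.29 to 4.74.

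Among epithelial mesenchymal transition factors SNAI2, which encodes Slug, read 3.39, 3.11 and 3.09 in control and 6.38, 6.25 and 6.30 after both (about 8.68-fold). SNAI1, Snail, read 5.71, 5.81 and 5.40 and then 6.58, 6.95 and 6.48. It was 1.03 ± 0.13 above control, with single differences of 0.33 (adjusted p = 0.142) and -0.03 (adjusted p = 0.968), and the combined level exceeded both single treatments. TWIST1, at a dim 4.10 in control, fell by 0.32 ± 0.09 with all arrays, and that call was lost without control replicate 1 or 2 or combined replicate 1 or 2. Of the 16 measured genes of this list 4 rose and 3 fell, and 3 and 1 did so without combined replicate 2. CDH1, E-cadherin, was lower by 0.26.

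Secreted signals rose in several families. ANGPTL4, an angiopoietin-like inhibitor of lipoprotein lipase, read 6.44, 6.61 and 6.54 in control, 9.99, 10.12 and 9.47 after wounding, and 10.28, 10.77 and 10.63 after both, a 16.3-fold rise in all. IL11, an IL-6 family cytokine, rose from 7.84 ± 0.14 to 10.11 ± 0.24 (4.81-fold) and exceeded each single treatment, by 1.10 over heat shock and 1.39 over wounding (adjusted p = 0.000352 and 3.03e-05). CXCL8, interleukin 8, rose 2.39-fold to 11.73 ± 0.25, and its excess over each single treatment did not pass (adjusted p = 0.177 and 0.0808). Of 28 chemokine and cytokine genes 8 rose and 1 fell. In the NF-kappaB list 8 of 16 rose and none fell, with the feedback inhibitors TNFAIP3 and NFKBIA at 2.15-fold and 1.58-fold.

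Fibroblast growth factors were of particular interest, since the series title names FGF1. FGF1, an acidic growth factor for epithelium and fibroblasts, read 3.25, 3.38 and 3.40 in control, 3.67, 3.80 and 3.39 after heat shock, 3.57, 3.72 and 3.45 after wounding, and 5.28, 5.55 and 5.59 after both. The combined arrays stood clear of all others, whereas the heat shocked arrays overlapped with control and the wounded arrays lay just above it. The difference was 2.13 ± 0.12 (about 4.38-fold from a dim level; adjusted p = 1.6e-07), with 0.28 for heat shock (adjusted p = 0.152) and 0.24 for wounding (adjusted p = 0.42). The other 3 FGF1 probe sets had smaller differences, 0.72, 1.02 and 1.20. FGF1 was also the 1 gene (0.00552%) for which the interaction of the treatments passed, by 1.62 ± 0.16 (adjusted p = 0.00623), which was not so with the mean over its probe sets (adjusted p = 0.137). FGF2, the basic family member, read 7.72, 7.76 and 7.72 in control and 9.36, 9.39 and 9.49 after both, 3.2-fold higher, with single differences of 1.01 and 1.04. FGF13 rose by 0.30 ± 0.09 from a dim 2.79, a call that was lost without combined replicate 2 and without control replicate 1 or 2. The receptor gene FGFR3 fell from 7.18 ± 0.10 to 6.28 ± 0.14, and the other 24 of 28 genes in the list did not pass. Thus 14.3% of the list passed, beside 23.1% of all genes. Only 6 of the 28 had a mean of at least 5 over all arrays, so for most members a change could be missed.

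Receptors and feedback of growth factor signalling changed by smaller amounts. EGFR rose from 8.22 ± 0.11 to 9.03 ± 0.06, and its family member ERBB3 fell from 6.14 ± 0.13 to 5.16 ± 0.23. Of 15 EGF receptor family and ligand genes 4 rose (26.7%) and 1 fell (6.67%), beside 8.66% and 14.4% of all genes. Without combined replicate 2, 2 rose and 1 fell, as the ligand genes HBEGF and TGFA no longer passed (adjusted p = 0.0757 and 0.0526). MAP kinase phosphatase and Sprouty genes, which dampen ERK signalling, rose in 6 of 20 cases and fell in 1, and SPRY4 rose by 0.43 ± 0.08. SPHK1, which makes the lipid mediator sphingosine 1-phosphate, read 6.65, 6.32 and 6.44 in control and 8.87, 9.29 and 8.79 after both (5.71-fold), with single differences of 1.06 and 0.90.

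In the TGF-beta and BMP families members moved in both directions. Of 26 TGF-beta and activin genes 12 rose and 6 fell: INHBA, the activin A subunit, rose from 5.09 ± 0.16 to 6.39 ± 0.07, FST, its antagonist follistatin, 1.94-fold, and TGFBR3, the co-receptor betaglycan, fell from 6.78 ± 0.11 to 5.30 ± 0.08. BMP2 rose from 5.41 ± 0.11 to 6.87 ± 0.11 while BMP4 read 8.88, 8.83 and 8.86 in control and 7.52, 7.22 and 7.56 after both, and it fell by 1.42 ± 0.10. ID2, an inhibitor of differentiation factors and a BMP target, fell by 1.23 ± 0.09 from 11.04. In the Notch list 7 of 20 rose and 3 fell. HES1, a Notch target repressor, fell by 1.14 ± 0.12, and HEY1, another target, rose by 0.79 ± 0.09 at a dim level.

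Falls were led by EDN2, the endothelin 2 gene, which read 9.48, 9.19 and 9.35 in control and 7.35, 6.92 and 6.64 after both. It fell by 2.37 ± 0.15 (adjusted p = 5.19e-07), with -1.26 after heat shock and -1.45 after wounding. CAVIN2, a caveolar coat protein gene, fell by 1.96 ± 0.14 to levels of 6.17, 5.43 and 5.76, of which combined replicate 2 was the lowest, and by 1.78 without that array. PKDCC, a secreted tyrosine kinase gene, fell by 1.71 ± 0.09. CYP1B1, a cytochrome P450 under the aryl hydrocarbon receptor, fell by 1.77 ± 0.13, with -1.47 after heat shock and -0.52 after wounding. In these genes all combined arrays lay below all control arrays.

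**Figure D3:**
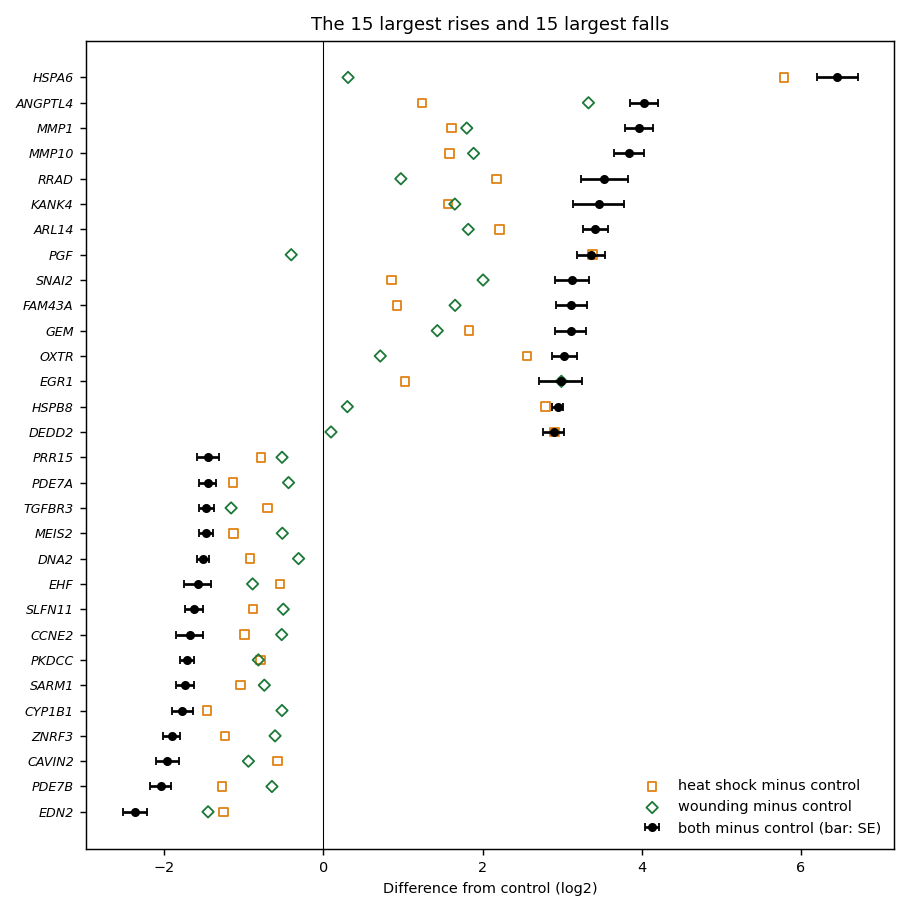
Difference from control (log2) for the 15 genes with the largest rises and the 15 with the largest falls, black points for both treatments with bars of ± 1 SE, orange squares for heat shock alone and green diamonds for wounding alone. HSPB8 and DEDD2 lie near the heat shock value, EGR1 at the wounding value, and MMP1 and MMP10 beyond both.

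Cyclic nucleotide phosphodiesterases, the enzymes that degrade cAMP and cGMP, had 9 of 17 members lower and 1 higher, with a median of -0.32 beside -0.01 over all genes (7 and 1 without combined replicate 2). PDE7B read 7.29, 7.54 and 7.20 in control and 5.47, 4.98 and 5.44 after both, and it fell by 2.04 ± 0.13. PDE7A fell by 1.46 ± 0.10 and PDE8B, another cAMP-specific enzyme, by 0.98 ± 0.12. PDE4B was the member that rose, by 0.53 ± 0.12, while PDE4D fell by 0.54 ± 0.07.

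Wnt receptor and feedback genes had 11 of 27 members lower and 1 higher, TCF7L2 (10 and 1 without combined replicate 2). ZNRF3, a ubiquitin ligase that removes Wnt receptors, read 8.48, 8.51 and 8.40 in control and 6.64, 6.30 and 6.73 after both, and it fell by 1.91 ± 0.11. LGR4, the R-spondin receptor gene, fell by 1.07 ± 0.10, the Wnt target AXIN2 by 1.04 ± 0.17 and the receptor FZD7 by 1.03 ± 0.10. Further AXIN2 probe sets, dim in control at 4.51 and 2.52, differed by -0.40 and -0.003. They did not pass in a limma fit over all probe sets (adjusted p = 0.0559 and 0.986). For AXIN2 wounding alone did not pass against control (adjusted p = 0.999), and the combined mean was below that of wounding alone (adjusted p = 0.00188).

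Genes of DNA replication and mitosis were lower in most cases. Of 34 genes of the G1/S transition and replication 29 fell and 1, CDK6, rose (28 and 1 without combined replicate 2), with a median of -0.52. CCNE2, a cyclin that drives entry into S phase, read 7.37, 7.25 and 7.54 in control and 5.75, 5.27 and 6.09 after both, and it fell by 1.68 ± 0.17, and CCNE1 fell by 1.01 ± 0.09. E2F8, a repressor in the E2F family, fell by 1.12 ± 0.07 and the origin recognition gene ORC1 by 0.98 ± 0.11. The MCM2, MCM3, MCM4, MCM6, MCM7 and MCM10 helicase genes fell by 0.23 to 0.70. Of 30 genes of G2 and mitosis 24 fell and none rose, with a median of -0.47, KIF11, a spindle motor, by 0.94 ± 0.07 and the condensin subunit NCAPH by 0.81 ± 0.06.

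DNA repair genes followed, with 15 of 24 homologous recombination and Fanconi genes lower and 1, FANCF, higher. DNA2, a nuclease and helicase of replication and repair, fell from 6.98 ± 0.06 to 5.47 ± 0.03, with little spread, with -0.93 after heat shock and -0.31 after wounding. BRIP1 fell by 1.15 ± 0.12 at a dim level, FANCM by 1.09 ± 0.17 and BARD1, the partner of BRCA1, by 0.91 ± 0.11. SLFN11, which blocks stressed replication forks, fell by 1.62 ± 0.11. Among p53 targets and inhibitors of cyclin-dependent kinases 6 of 20 rose and 5 fell: CDKN1A, p21, rose from 10.52 ± 0.14 to 11.39 ± 0.14, and TOB1, an antiproliferative gene, fell by 1.02 ± 0.08 from 11.03.

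Of the BCL2 family and death regulators 5 of 20 rose (25%) and 2 fell (10%), beside 8.66% and 14.4% of all genes. MCL1, a short-lived survival factor, read 10.48, 10.58 and 10.54 in control and 11.85, 11.93 and 11.82 after both (2.52-fold), above heat shock alone by 0.75 and above wounding alone by 0.55. Further MCL1 probe sets rose by 1.28, 1.28 and 1.66, while those at 8.31 and 5.10 in control differed by 0.19 and 0.25. The latter did not pass in a limma fit over all probe sets (adjusted p = 0.235 and 0.104). The pro-death genes BBC3, PUMA, and BCL2L11, BIM, also rose, by 0.83 ± 0.11 and 0.82 ± 0.09.

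NRF2, the regulator of antioxidant genes, and its targets had 11 of 24 members lower and 2 higher, HMOX1 and ME1. Counts of falls were 8 without combined replicate 2, 8 after median centring and 7 with cyclic loess. The regulator itself, NFE2L2, read 10.84, 10.84 and 10.82 in control and 10.25, 10.12 and 10.16 after both, and it fell by 0.66 ± 0.07, with -0.20 and -0.30 after the single treatments. GCLC, which limits glutathione synthesis, fell by 0.72 ± 0.07 and SLC7A11, the cystine importer, by 0.64 ± 0.08, and both were lower than in each single treatment. HMOX1, heme oxygenase, was higher by 0.59 ± 0.11.

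Splicing, lipid synthesis and mitochondrial lists had more falls than rises, as did all genes (14.4% lower and 8.66% higher). Of 26 SR protein and splicing kinase genes 9 fell and 3 rose, but 5 and 2 did so without combined replicate 2, with a median of -0.13 and then -0.08. SRSF2 fell by 0.82 ± 0.11 and the cold-inducible RNA-binding gene CIRBP by 0.86 ± 0.14, while the kinase gene CLK3 rose by 0.70 ± 0.12. Of 19 cholesterol and fatty acid synthesis genes 7 fell and 1, HMGCS1, rose, with 3 falls without combined replicate 2 and 2 with cyclic loess. The median of this list was -0.17 with and without combined replicate 2, and -0.09 with cyclic loess. Of 29 mitochondrial ribosome and complex I genes 6 fell and 1 rose, 24.1% in all, which is near the 23.1% of all genes. Without that array 3 fell and 1 rose, and with cyclic loess 2 fell and 2 rose. None of 29 cytosolic ribosomal protein genes passed, and GAPDH, ACTB and TBP differed by -0.04 ± 0.05, 0.02 ± 0.10 and 0.05 ± 0.08 (adjusted p = 0.713, 0.906 and 0.689).

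**Figure D4:**
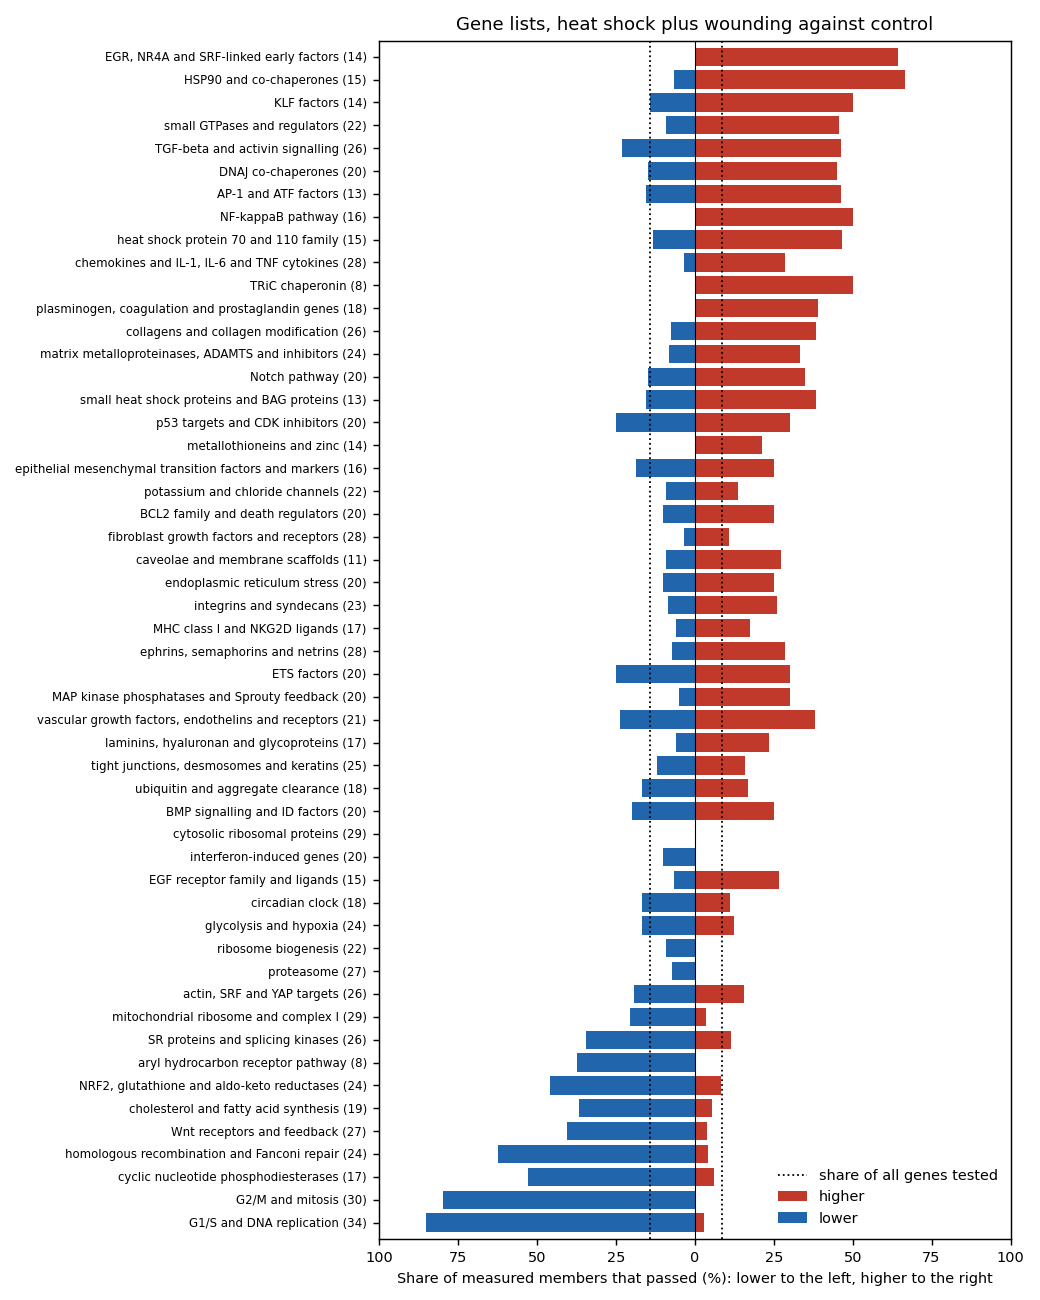
Share of the measured members of each of 52 gene lists (number in brackets) that were higher (red, to the right) or lower (blue, to the left) in heat shocked and wounded monolayers than in control, ordered by median difference, with dotted lines at the shares over all genes tested, 8.66% and 14.4%. The HSP90 and early factor lists have 66.7% and 64.3% of members higher, and the G1/S and G2/M lists 85.3% and 80% lower.

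Vascular, guidance, channel and metal-binding genes moved in both directions or in few members. For scale, 8.66% of all genes were higher and 14.4% lower, 23.1% in all. In the list of vascular growth factors and endothelins 8 of 21 genes rose and 5 fell (7 and 3 without combined replicate 2), and the sign of its median changed with cyclic loess, with quantile normalization and without combined replicate 2. VEGFA rose by 0.91 ± 0.16. Of 28 ephrins, semaphorins and netrins 8 rose and 2 fell, SEMA7A, which acts through integrins, 3.52-fold and SEMA4B 2.65-fold. Of 22 potassium and chloride channels 3 rose and 2 fell, 22.7% in all and thus near the share of all genes. KCNMA1 and KCNN4, both calcium-activated potassium channels, rose 2.98-fold and 2.3-fold, and the inward rectifier KCNJ2 was lower by 1.11 ± 0.12. A further KCNMA1 probe set rose by 0.91, but another, at 5.69 in control, differed by 0.04 (adjusted p = 0.922 in a limma fit over all probe sets). The remaining KCNMA1 probe sets were dim and did not pass. Zinc-binding metallothionein and zinc genes had 3 of 14 higher, MT2A by 0.60 ± 0.06. Among 18 circadian clock genes 2 rose (11.1%) and 3 fell (16.7%), near the shares of all genes. BHLHE40 rose by 1.01 ± 0.07, and HLF fell by 1.38 ± 0.16 at a dim level. Of 25 tight junction, desmosome and keratin genes 4 rose and 3 fell, and CLDN4 rose from 5.70 ± 0.42 to 7.24 ± 0.47, with its highest level, 7.77, on combined replicate 2. The other 2 probe sets of CLDN4 rose by more, 3.68 and 4.28, from a dim 4.67 and 4.01 in control. Of 26 actin, SRF and YAP targets 4 rose and 5 fell, and of 24 glycolysis and hypoxia genes 3 rose and 4 fell. Ribosome biogenesis genes had 2 of 22 lower (1 without combined replicate 2), aryl hydrocarbon receptor genes 3 of 8 lower, and neither had a member higher. Of 11 caveolar genes 3 rose and 1 fell. Interferon-induced genes had 2 of 20 lower and none higher, and 1 higher and none lower without combined replicate 2.

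A further question of the design is which genes differed in the combined group from control and also, in the same direction, from heat shock alone and from wounding alone. Against heat shock alone 779 genes passed (4.3%) and against wounding alone 2704 (14.9%), whereas against control heat shock alone had 2330 calls (12.9%) and wounding alone 648 (3.57%). There were 399 such genes, 2.2% of those tested, 251 higher (1.38%) and 148 lower (0.816%). The condition does not require that either treatment alone differed from control, and it is not a test of whether the effects exceed their sum. The median excess over the nearer single treatment was 0.44 for the higher and -0.38 for the lower genes, and 23 genes differed from the nearer one by at least 2-fold. Without combined replicate 2 there were 222 such genes, of which 208 (152 higher and 56 lower) were among the 399. Counts in 1 direction were highest for small GTPases (6 higher), the matrix protease list (5 higher), the laminin list (4 higher), the G2/M list (4 lower) and the NRF2 list (4 lower). With both directions counted, the vascular list had 5 such genes (3 higher and 2 lower) and the ETS, TGF-beta and BMP lists 4 each. The mitotic genes were BUB1B, a spindle checkpoint kinase gene, and the motor genes KIF11, KIF20A and KIF23.

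Those with the largest excess were MMP1, MMP10, FGF1, KANK4, FAM43A, SPHK1, RRAD, KDM6B, GEM and CRCT1. KDM6B, a histone H3 lysine 27 demethylase gene, read 4.66, 4.61 and 4.50 in control and 6.30, 6.85 and 6.47 after both, with 5.17, 5.05 and 5.10 after heat shock and 5.13, 5.40 and 5.20 after wounding. The single treatments thus added 0.52 and 0.66 to a dim level, and both added 1.95 ± 0.12. CRCT1, a cornified envelope region gene, rose 4.48-fold, with single differences of 0.93 and 0.56. FAM43A rose about 8.67-fold from 4.69 ± 0.14. None of the 193 promoter windows of genes in this higher set held a heat shock element. The share over all windows was only 0.402%, so a set of this size need not hold any. An AP-1 site stood in 20 of them (10.4%, beside 5.8% of all windows).

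Largest on the lower side were CAVIN2, EDN2, PKDCC, VAV3, PDE7B, SLFN11, VLDLR, SARM1, HHEX and CCNE2. VLDLR, a lipoprotein receptor gene, read 8.38, 8.50 and 8.21 in control, 8.19, 8.07 and 8.22 after heat shock, 8.25, 8.20 and 8.11 after wounding, and 7.71, 7.08 and 7.53 after both. The single treatments overlapped with control and did not pass (adjusted p = 0.389 and 0.659), and the combined fall was 0.93 ± 0.13. HHEX, a homeobox gene of endoderm, fell by 1.44 ± 0.12 and VAV3, an exchange factor gene, by 1.43 ± 0.15. In 18 of these 20 genes the condition held without combined replicate 2. The exceptions were RRAD and CCNE2, whose difference from heat shock alone then had adjusted p = 0.0863 and 0.0968.

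**Figure D5:**
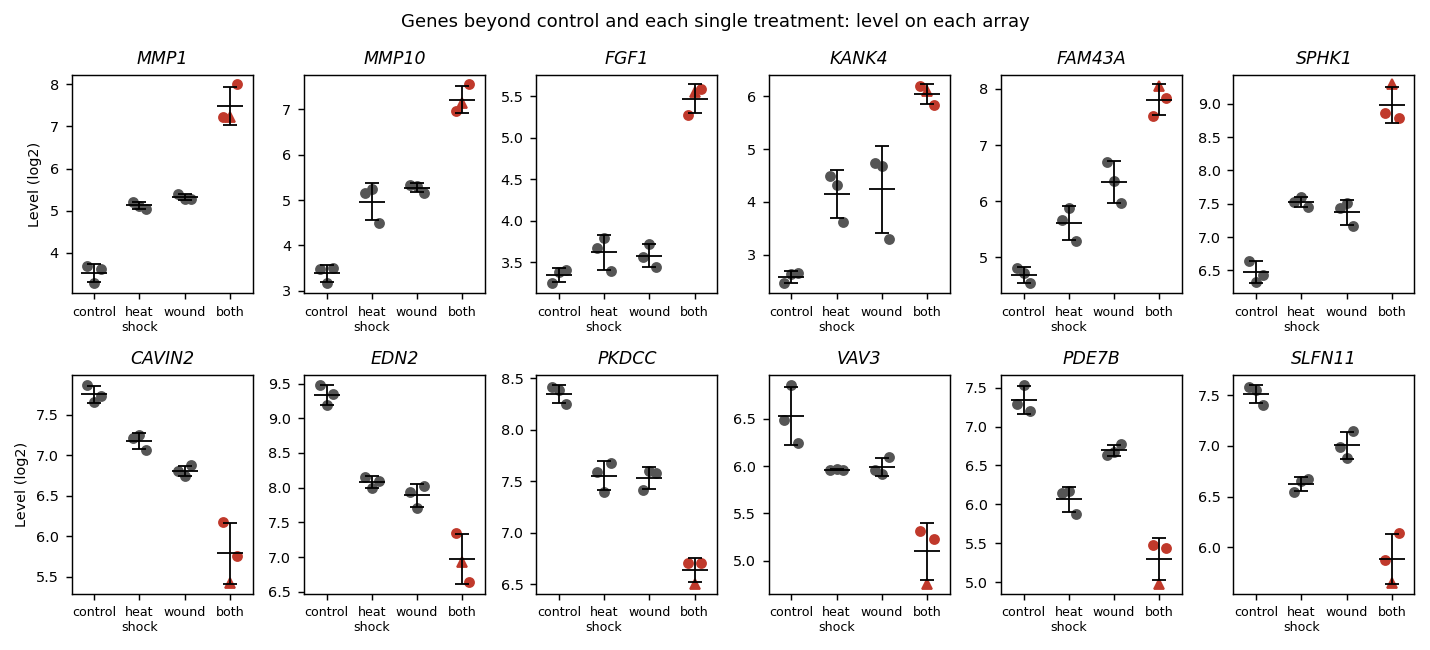
Log2 level on each array for 12 genes that differed in the combined group from control and from each single treatment, with the mean and SD of each group as lines. Grey points are control, heat shock and wounding, red points the combined group, and the triangle is combined replicate 2. The combined arrays lie outside the other groups in every panel, and the triangle is the lowest of the group for CAVIN2, PKDCC, VAV3, PDE7B and SLFN11.

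The 10 genes in which combined replicate 2 lay farthest from replicates 1 and 3 were picked for that gap, which itself widens their spread. PCDHB2, a protocadherin gene, read 6.37, 5.13 and 6.38 in the combined group and 5.99 to 6.14 in control, and ODAD1, a dynein arm docking gene, 6.32, 7.06 and 6.09 beside 6.32 to 6.66. Of these 10 genes CLDN4 and NFE2L3 passed against control, which is near the share of all genes (23.1%). NFE2L3 had levels of 5.95, 5.20 and 6.04 beside 6.69 to 6.76. Both genes passed without the array as well (adjusted p = 0.000645 and 0.000202). Some calls did turn on it: C1GALT1C1L, with 4.86, 4.25 and 5.35, fell by 0.78 ± 0.22 with all arrays and did not pass without replicate 2 (adjusted p = 0.0564), and also not without control replicate 1. E2F1, an activating E2F factor, read 6.23, 6.70 and 6.30 beside 6.70 to 7.06 in control. It did not pass with all arrays (adjusted p = 0.054) and fell by 0.62 without replicate 2 (adjusted p = 0.0182).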

How the data were processed

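RNA of A549 monolayers was measured on 12 Affymetrix PrimeView arrays, in 4 groups of 3 taken from the labels. The deposited values are log2 levels from RMA, run by the authors in Expression Console of Affymetrix according to the submitters' processing notes. RMA subtracts background, equalises the distributions of the arrays and summarises probes. The version of the program is not given in the sources used here, scanner files were not used here, and no detection p was at hand, so the number of arrays limits the precision. Of 49293 probe sets, 1 had a missing value and was left out, 44987 had 1 gene symbol in the platform annotation (44960 matched in RefSeq's gene table, build GRCh38.p14), 1832 several and 2473 were not listed. Each of 18132 genes was read through its probe set with the highest mean over all arrays; 11734 genes had more than 1. In 42 called genes a further probe set was called the other way, none of them among the genes named by the rule below.

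Group means over all 12 arrays were compared with limma 3.58.1 (R 4.3.3; default lmFit and eBayes, 8 residual degrees of freedom), with Benjamini-Hochberg adjustment over all genes and calls at an adjusted p under 0.05. All adjusted p-values come from limma; SE follows differences and SD (n = 3) follows levels after ±. The code was tested on simulated data. Alternatives were leaving out each array, a replicate block, a block for the code in the labels, 6 arrays alone, median centring, cyclic loess, quantile normalization, a minimum mean of 5, the mean over all probe sets, array weights, and a trended robust spread.

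The comparison, its 58 gene lists and the rule for named genes were chosen with earlier results of these data known. The rule took the 15 largest rises and 15 largest falls with no overlap of arrays, up to 4 called genes per list, the 10 largest each way beyond both single treatments, the 10 genes with the largest gap of combined replicate 2, 5 calls each that turned on that array, and a fixed set; the text gives part of them. BUB1B, CDH1, DNAJB5, ESAM, FANCF, HMOX1, HSPA2, HSPA14, KIF20A, KIF23, MCM genes, ME1, MMP9, PDE4B, PDE4D, TCF7L2, TIE1, TIMP1, TIMP2, CDK6, DOCK10 and PHF8 were named after their values were seen. Promoter windows came from RefSeq; the first matches among the largest rises are printed.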

Additional observations from a re-analysis of the deposited data

Results flagged for a closer look

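FGF1 was the only gene for which the effect of wounding differed between heat shocked and unheated monolayers by the interaction term of the model. The interaction was 1.62 ± 0.16 on the log2 scale (limma adjusted p = 0.00623), and all 3 combined arrays lay above the other 9. A single gene in 18132 is 0.00552% of those tested. Under the alternatives in which FGF1 was tested through this probe set, the adjusted p lay between 0.00069 and 0.0425. With the mean over all probe sets of a gene the interaction was 0.85 (adjusted p = 0.137), and with a minimum mean of 5 the gene was left out, since its mean over all arrays was 4.00. In the other 3 FGF1 probe sets the interaction had adjusted p from 0.581 to 0.745.

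Probe sets outside the tests by gene also held differences between heat shocked and wounded monolayers and control. Among 1832 probe sets with several gene symbols 109 were higher and 159 lower (14.6% in all). Among 2473 probe sets with no gene listed 161 were higher and 232 lower (15.9% in all). These probe sets were not used in any comparison above.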

How the results depend on the processing

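The count of 4180 genes against control stayed within 1.5 times under every alternative run, between 3088 and 4943. Leaving out an array gave 3088 to 4132, the replicate block 4230 and the block for the code in the labels 4444. The 6 arrays alone gave 3405. Counts of genes changed at least 2-fold ranged from 219 with the mean over all probe sets to 331. Higher genes made up 37.6% of calls, and 49.8% with cyclic loess. The median difference was 0.05 for genes with a mean under 5 and -0.06 for the others, and 0.02 and 0.00 with cyclic loess.

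The count beyond control and both single treatments was 399 and 222 to 417 when an array was left out, with 222 for combined replicate 2. It was 414 with the replicate block, 468 with the block for the code in the labels and 496 with array weights. A minimum mean of 5 gave 535 among 10990 genes tested, and a trended robust spread gave 591. The share of higher genes was 62.9%, 49.7% with a minimum mean of 5 and 51.4% with a trended robust spread. Of 3709 values of named genes under alternatives, 3579 kept direction and side of the threshold, 111 lost the call and 19 gained it, and no called gene among them turned its direction.

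Replicate numbers did not clearly pair the samples: same-numbered arrays deviated together with correlations from -0.187 to 0.234, and 5 of 12 arrays correlated best with their own number. With 3 arrays in each group these values cannot exclude a pairing. The code in the labels is shared by replicates 1 and 2 of every group and differs for replicate 3, and its meaning is not stated. Interaction calls numbered 1, and 0 to 2 under alternatives. Dim levels limit the folds of 48 of the 234 genes at least 2-fold higher.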

Other observations

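Gene families outside the lists were counted by symbol or type after the data were seen, and their counts under other scalings were not run. Zinc finger genes of the ZNF family, most of which encode DNA-binding repressors, had 62 of 486 members higher (12.8%) and 36 lower (7.41%), beside 8.66% and 14.4% of all genes; without combined replicate 2 there were 52 and 21. Solute carriers, the membrane transporters, had 19 of 357 higher (5.32%) and 58 lower (16.2%), and 15 and 42 without that array. Long noncoding RNA genes had 13 of 454 higher (2.86%) and 12 lower (2.64%), and 92 of the 454 had a mean level of at least 5.

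GAL, the galanin neuropeptide gene, was named after its values were seen. It read 7.0, 6.81 and 6.91 in control, 7.50, 7.65 and 7.04 after heat shock, 8.35, 8.29 and 7.82 after wounding, and 9.08, 9.61 and 9.15 after both. The combined level exceeded control by 2.37 ± 0.18 (limma adjusted p = 1.87e-06), and exceeded heat shock alone by 1.88 and wounding alone by 1.12. TFAP2A, an epithelial transcription factor gene, also named after its values were seen, fell by 1.28 ± 0.08 from 8.69 ± 0.08, with -0.68 after heat shock and -0.56 after wounding.

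GABARAPL1, an autophagy gene of the ATG8 family, read 7.74, 7.69 and 7.69 in control and 8.56, 8.74 and 8.68 after both. It rose by 0.95 ± 0.09, with 0.59 after wounding alone and 0.07 after heat shock alone (adjusted p = 0.691). AJUBA, a LIM protein of the Hippo pathway, had opposite single differences, 0.48 after heat shock and -0.79 after wounding, and fell by 0.47 ± 0.11 after both. Further AJUBA probe sets differed from control by -0.42 and -1.43 after both.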
